A study of Mus musculus with 6 samples.

Results

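The receptors that read interferons and the kinases, transcription factors and inhibitor that relay their signal were compared between megakaryocyte progenitors (MkP) of fetal liver and of adult bone marrow. The set comprised Ifnar1, Ifnar2, Ifngr1, Ifngr2, Jak1, Jak2, Tyk2, Stat2, Stat3 and Socs1. Its members were the probe sets whose gene symbol in the platform annotation was 1 of these 10 names, and 22 such probe sets were found among 45037 on the array, which name 18194 genes. A probe set is a group of oligonucleotide probes against 1 transcript region, so several probe sets can report on the same gene. MkP are precursors of megakaryocytes, the marrow cells that shed platelets. All cells came from wild-type C57BL/6 mice. The 3 bone marrow samples were taken from adults aged 12 to 18 weeks and the 3 fetal liver samples from embryos at E13.5. Cells of both tissues were flow sorted as negative for lineage markers and Sca-1 and positive for c-kit, CD150 and CD41. The labels do not say how many animals or embryos made up a sample, so p-values measure the spread between these samples.

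As background, type I interferons bind a receptor made of the chains IFNAR1 and IFNAR2, and interferon gamma binds one made of IFNGR1 and IFNGR2. Each chain carries a Janus kinase (JAK) on its inner side, TYK2 on IFNAR1, JAK1 on IFNAR2 and IFNGR1, and JAK2 on IFNGR2. The activated kinases phosphorylate STAT proteins, which enter the nucleus and bind the interferon-stimulated response element (ISRE) or the gamma-activated site (GAS) of target genes, and SOCS1 is a target that shuts the kinases off. Interferons are known in the adult marrow as signals to which blood stem cells and megakaryocyte-biased progenitors respond.

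Ifnar2, Ifnar1 and Ifngr2 lie on mouse chromosome 16 in that order, with Il10rb, a chain of the interleukin 10 receptor, between Ifnar2 and Ifnar1, and no other protein-coding gene between them in the RefSeq gene table (GRCm38.p6). Promoter windows of 250 bases before the annotated start were taken from RefSeq (GRCm38.p6) for all 10 genes and searched on both strands for the ISRE core (GAAA, any 2 bases, GAAA) and the GAS motif TTCNNNGAA. Those that held a match are shown because these are the elements through which the relay acts, with the matched letters in capitals. They are Ifnar2 (chr16:91372533-91372782, plus strand), Stat2 (chr10:128270248-128270497, plus strand) and Socs1 (chr16:10785537-10785786, minus strand), each written 5′ to 3′ along its gene.
Ifnar2: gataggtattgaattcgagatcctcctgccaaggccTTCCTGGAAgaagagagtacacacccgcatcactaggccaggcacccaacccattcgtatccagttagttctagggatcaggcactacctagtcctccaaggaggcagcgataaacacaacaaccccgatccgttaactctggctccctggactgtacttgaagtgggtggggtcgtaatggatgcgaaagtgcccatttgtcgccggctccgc
Stat2: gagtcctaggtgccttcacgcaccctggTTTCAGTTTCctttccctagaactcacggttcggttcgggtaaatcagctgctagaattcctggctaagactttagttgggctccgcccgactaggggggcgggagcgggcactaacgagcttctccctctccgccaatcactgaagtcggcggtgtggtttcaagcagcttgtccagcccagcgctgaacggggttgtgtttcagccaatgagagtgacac
Socs1: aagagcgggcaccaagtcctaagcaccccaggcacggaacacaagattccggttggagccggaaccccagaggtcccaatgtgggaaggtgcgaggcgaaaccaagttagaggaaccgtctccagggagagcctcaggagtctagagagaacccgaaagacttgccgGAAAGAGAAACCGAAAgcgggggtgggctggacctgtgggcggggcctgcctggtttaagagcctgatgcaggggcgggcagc
The Ifnar2 window held 1 GAS match, TTCCTGGAA, 205 bases before the start. Stat2 held 1 ISRE core on the opposite strand, TTTCAGTTTC, 212 bases before the start. Socs1 held 2 ISRE cores, GAAAGAGAAA and GAAACCGAAA, which overlap by 4 bases and end 73 and 67 bases before the start. An ISRE core stood in 2 of the 10 windows and a GAS match in 1, against 2.98% and 7.02% of 32851 promoter windows of the same length. A match describes the letters and is no evidence of binding.

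The windows of both interferon gamma receptor chains are shown because the mean signal of Ifngr1 was the lower one in fetal liver and that of Ifngr2 the higher one. They are Ifngr1 (chr10:19591699-19591948, plus strand) and Ifngr2 (chr16:91546809-91547058, plus strand), and neither held a match to either motif.
Ifngr1: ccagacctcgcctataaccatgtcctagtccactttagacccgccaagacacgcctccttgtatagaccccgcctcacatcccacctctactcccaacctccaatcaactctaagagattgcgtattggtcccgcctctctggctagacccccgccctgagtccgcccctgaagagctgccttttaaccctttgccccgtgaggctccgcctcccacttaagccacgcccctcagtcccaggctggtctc
Ifngr2: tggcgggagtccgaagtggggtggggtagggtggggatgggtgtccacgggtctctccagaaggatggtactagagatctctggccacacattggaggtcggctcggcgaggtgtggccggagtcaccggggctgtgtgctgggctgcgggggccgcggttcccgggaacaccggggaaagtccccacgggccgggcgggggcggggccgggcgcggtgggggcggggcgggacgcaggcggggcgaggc
G and C made up 59.2% of the Ifngr1 window and 74.0% of the Ifngr2 window, against a median of 52.4% over all promoter windows.

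The values are probe set signals on a linear scale from 1 Affymetrix array per sample. Their precision is limited by the number of arrays. A signal was taken as above background on an array where it exceeded the highest of 27 Bacillus control probe sets, which lay between 22.2 and 35.1. Of the 22 probe sets, 21 were above background on all 6 arrays, those of every gene but Socs1. Median signals were 74.1 to 80.2 on the marrow arrays and 62.8 to 65.5 on the fetal liver arrays. For Actb the ratio of 5′ to 3′ signal, a measure of RNA and labelling quality, was 1.06 to 1.13 in marrow and 0.892 to 1.02 in fetal liver. The same ratio for Gapdh was 0.0990 to 0.303 in marrow and 0.109 to 0.449 in fetal liver. Median signal and the Actb ratio thus separated the tissues, and the Gapdh ratio overlapped. The part of these measures in the differences below was not tested. Of the genes of the sort, Itga2b (CD41) averaged 4918 ± 654 in marrow (SD, n = 3) and 3205 ± 794 in fetal liver, Kit 1298 ± 440.0 and 870.5 ± 256, and Slamf1 (CD150) 643 ± 211 and 775 ± 177, and none was past the threshold (limma adjusted p = 0.133, 0.419 and 0.698).

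Across the set, a single probe set of Ifnar2 was past the threshold, with a lower level in fetal liver. The test was limma's moderated test on log2(signal + 2.87) over 27022 probe sets bright enough to be kept, with Benjamini-Hochberg adjustment over all of them and a threshold of 0.05. Changes are fetal liver minus marrow on that log2 scale, each with its standard error (SE). Of 21 tested probe sets, 1 was higher in marrow (3.28% of all probe sets tested were) and 0 were higher in fetal liver (1.78% of all were). At an unadjusted p under 0.05 the counts were 3 and 0, against 11.8% and 8.26% of all probe sets tested. The share called, 1 of 21, was thus near that of the whole array. The median change of the 21 was -0.24, against -0.05 over all 27022, and 16 of 21 were negative. Median centring moved the median of all probe sets by 0.25 towards fetal liver. It moved every change by that amount and left 10 of 21 negative, with a median of 0.02 against 0.20 over all probe sets tested. Under quantile normalization 10 of 21 were also negative, with medians of 0.02 and 0.06. The sign of the set's median thus did not hold across scalings, while that median stayed below the one of all probe sets. The size of this gap was not tested.

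**Figure D1:**
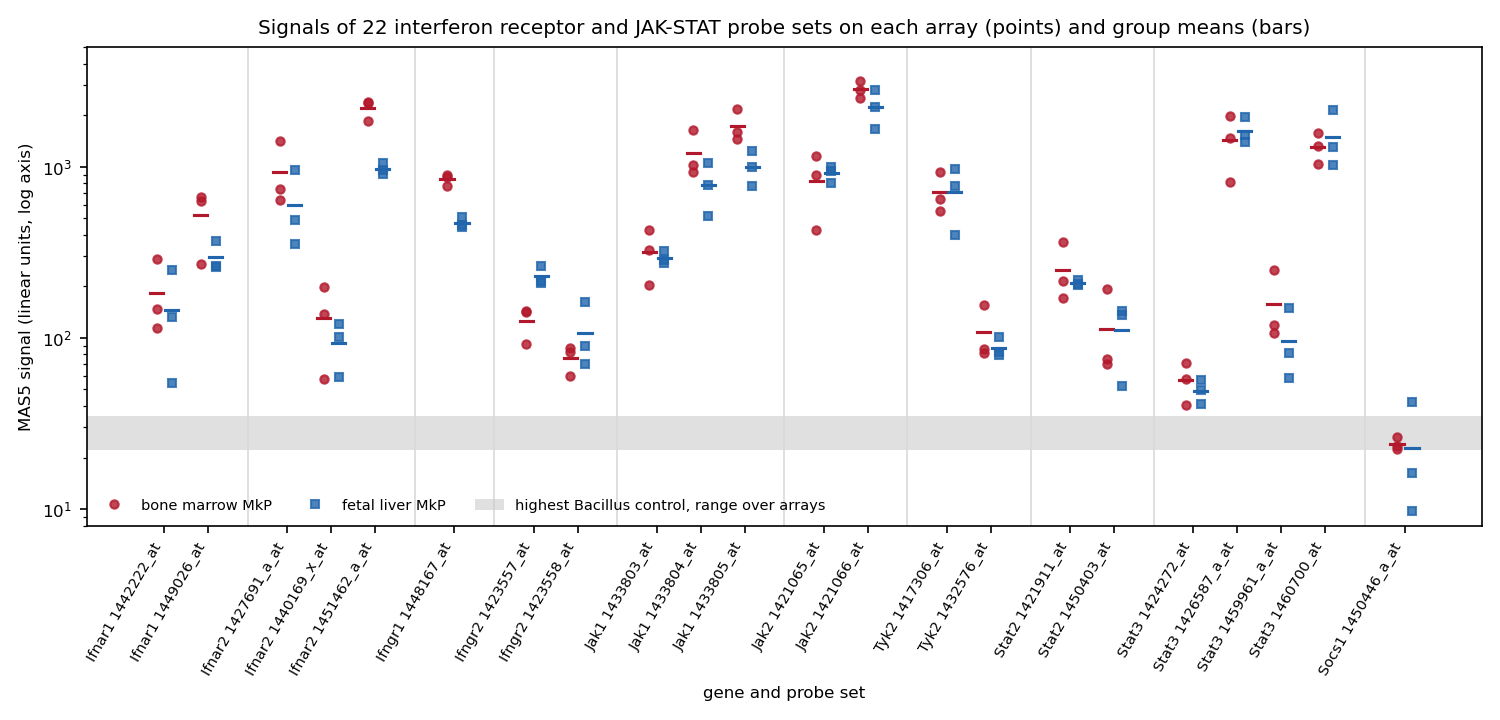
MAS5 signals (log axis) of all 22 probe sets of the 10 genes, with 1 point for each array, circles for bone marrow MkP and squares for fetal liver MkP, and a bar at each mean of 3 arrays. The grey band spans the highest Bacillus control signals of the arrays, 22.2 to 35.1, and the marrow points of Ifnar2 probe set 1451462_a_at, at 1855 to 2379, all lie above the fetal liver points at 907 to 1056.

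Ifnar2 encodes the high-affinity chain of the type I receptor, which carries JAK1, and its brightest probe set was lower in fetal liver. Which transcripts of the gene each probe set covers could not be looked up. Probe set 1451462_a_at had signals of 2343, 1855 and 2379 in marrow replicates 1 to 3 and of 956, 907 and 1056 in fetal liver replicates 1 to 3. The tissues did not overlap, and the lowest marrow array stood well above the highest fetal liver array. The means were 2192 ± 293 (SD, n = 3) and 973 ± 76.2, a change of -1.16 ± 0.23 (SE, limma adjusted p = 0.0156) or 2.24-fold. It no longer passed when fetal liver replicate 2 (adjusted p = 0.0822) or fetal liver replicate 3 (0.0599) was left out, without the intensity trend of the variance (0.0731) and with the mean of the gene's probe sets (0.212, change -0.73), within 0.0108 to 0.212 over all alternatives.

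The other Ifnar2 probe sets pointed the same way and overlapped between tissues. Probe set 1427691_a_at had signals of 1403, 739 and 634 in marrow and 950.0, 488 and 355 in fetal liver. Replicate 1 was the brightest array in each tissue, and the change was -0.66 ± 0.42 (limma adjusted p = 0.434). Probe set 1440169_x_at, whose suffix marks probes shared with other transcripts, had 197, 57.2 and 137 in marrow and 120, 101 and 58.9 in fetal liver, which is -0.36 ± 0.59 (adjusted p = 0.798). Marrow replicate 2 was its lowest array. Highest over lowest signal within a tissue was 1.28 and 1.16 for 1451462_a_at in marrow and fetal liver, 2.21 and 2.67 for 1427691_a_at, and 3.45 and 2.05 for 1440169_x_at, so the called probe set was also the one of the gene on which replicates differed least.

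Ifnar1, the chain that carries TYK2, had lower means in fetal liver on both its probe sets and was past the threshold on neither. Probe set 1449026_at had signals of 661, 271 and 627 in marrow and 367, 264 and 259 in fetal liver. Marrow replicates 1 and 3 were above every fetal liver array, while marrow replicate 2 lay among them. The change was -0.72 ± 0.42 (limma adjusted p = 0.388), with a 95% interval of -1.64 to 0.21, and -1.13 without marrow replicate 2 (adjusted p = 0.122). Probe set 1442222_at had 147, 288 and 114 in marrow and 249, 54.3 and 133 in fetal liver, with no separation of the tissues (-0.46 ± 0.62, adjusted p = 0.747). Without fetal liver replicate 2 its change was 0.10.

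Ifngr1, the ligand-binding chain of the interferon gamma receptor, had replicates that lay close together and a lower mean in fetal liver that missed the threshold. Its only probe set, 1448167_at, had signals of 875, 897 and 772 in marrow and 445, 507 and 456 in fetal liver. The tissues did not overlap, and highest over lowest signal was 1.16 in marrow and 1.14 in fetal liver. The means were 848 ± 66.7 (SD, n = 3) and 470 ± 33.4, a change of -0.85 ± 0.28 (limma adjusted p = 0.111) with a 95% interval of -1.46 to -0.24. In the fit on the mean of each gene's probe sets, where the other genes' values changed and its own did not, it was past the threshold (adjusted p = 0.0398, within 0.0398 to 0.312 over all alternatives).

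Ifngr2, the chain that carries JAK2 and that completes the signalling receptor, had the opposite order, with higher means in fetal liver on both probe sets. Probe set 1423557_at had signals of 92.1, 144 and 141 in marrow and 208, 214 and 265 in fetal liver. Every fetal liver array was above every marrow array. The change was 0.87 ± 0.43 (limma adjusted p = 0.301) with a 95% interval of -0.09 to 1.83, and it stayed between 0.63 and 1.13 in every alternative run. Probe set 1423558_at had 87.6, 60.2 and 82.3 in marrow and 89.7, 162 and 70.4 in fetal liver, where 1 fetal liver array lay among those of marrow and replicate 2 was the highest (0.40 ± 0.54, adjusted p = 0.745).

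Set against each other within each array, the brightest probe sets of Ifngr2 and Ifngr1 gave a log2 difference of -3.21, -2.61 and -2.43 in marrow and of -1.09, -1.23 and -0.78 in fetal liver. The mean difference was -2.75 ± 0.41 in marrow (SD, n = 3) and -1.03 ± 0.23 in fetal liver, 1.72 apart. Any scaling common to a whole array cancels in this difference. The pair was chosen after its values were seen, so no test is given, and levels of the 2 probe sets cannot be compared as transcript amounts.

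Of all 22 probe sets, 3 had all marrow arrays above all fetal liver arrays (11.8% of 45037 did) and 1 the reverse (8.68% did). The former were those of Ifnar2 and Ifngr1 and 1 of Jak1, and the latter that of Ifngr2. The remaining 18 overlapped.

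**Figure D2:**
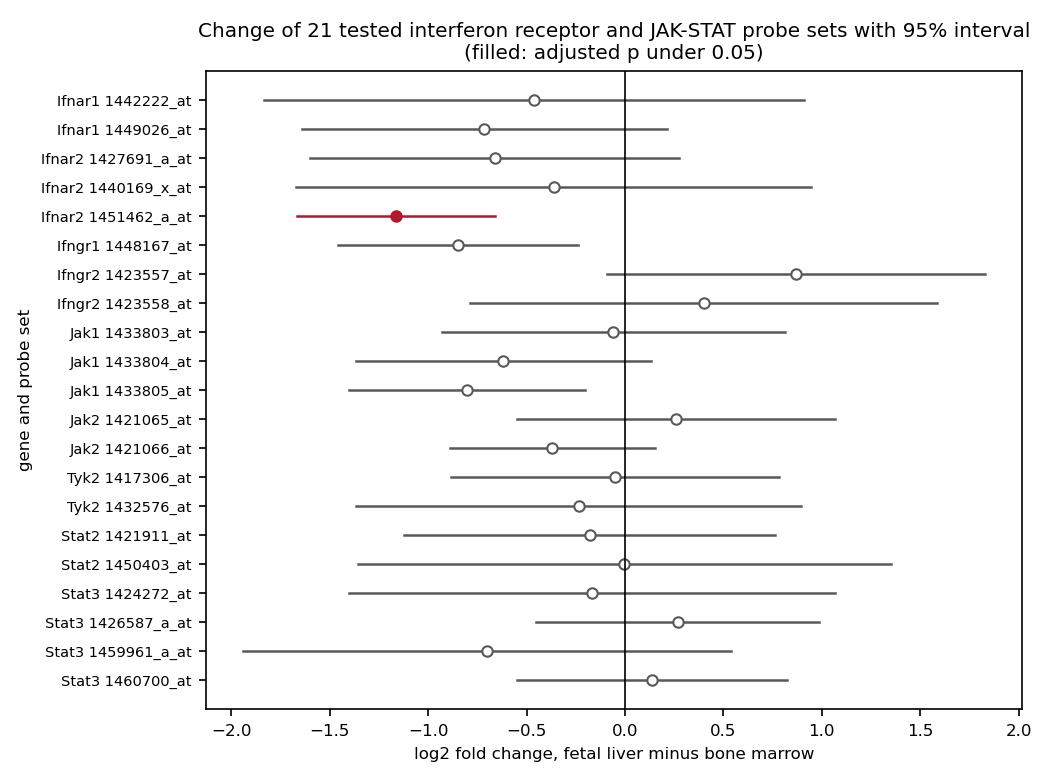
Log2 fold change, fetal liver minus bone marrow, of the 21 tested probe sets, with points for the limma estimate and lines for its 95% interval. The filled point is Ifnar2 probe set 1451462_a_at at -1.16, the only one past the adjusted threshold, while the intervals of Ifngr1 and of Jak1 probe set 1433805_at also lie below 0 without passing it.

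Jak1, the kinase shared by both receptors, had a lower mean in fetal liver on its brightest probe set and did not pass the threshold. Probe set 1433805_at had signals of 1451, 1598 and 2159 in marrow and 769, 995 and 1230 in fetal liver. The tissues did not overlap, although the closest arrays, at 1451 and 1230, were near each other. The change was -0.80 ± 0.27 (limma adjusted p = 0.124), with a 95% interval of -1.40 to -0.20. Probe set 1433804_at had 1639, 928 and 1018 in marrow and 515, 787 and 1049 in fetal liver, so that fetal liver replicate 3 exceeded 2 of the marrow arrays (-0.62 ± 0.34, adjusted p = 0.351). Probe set 1433803_at, at 204 to 425 in marrow and 273 to 322 in fetal liver, had a change of -0.06 ± 0.39 (adjusted p = 0.959), which turned positive under quantile normalization and median centring.

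Jak2, which also serves the erythropoietin receptor, gave opposite signs on its probe sets and no separation of the tissues. Probe set 1421066_at had signals of 2810, 3169 and 2506 in marrow and 2792, 1667 and 2223 in fetal liver, where replicate 1 reached the marrow range (-0.37 ± 0.24, limma adjusted p = 0.434, 95% interval -0.89 to 0.15). Probe set 1421065_at had 1155, 429 and 894 in marrow and 806, 999 and 945 in fetal liver. Marrow replicate 2 alone lay below the rest, and without it the change of 0.26 ± 0.36 (adjusted p = 0.759) became -0.15.

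Tyk2, the kinase of IFNAR1, had nearly equal means on its brighter probe set. Probe set 1417306_at had signals of 548, 931 and 650 in marrow and 964, 774 and 401 in fetal liver, and the fetal liver arrays spanned the whole marrow range. The change was -0.05 ± 0.38 (limma adjusted p = 0.964), with a 95% interval of -0.88 to 0.78. Probe set 1432576_at had 156, 81.2 and 86.2 on the marrow arrays and 82.7, 79.5 and 101 on those of fetal liver (-0.24 ± 0.51, adjusted p = 0.855). Both signs turned under median centring and quantile normalization.

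Stat2, which joins IRF9 to form the factor that binds the ISRE, did not differ beyond the spread of the arrays. Probe set 1421911_at had signals of 170, 365 and 215 in marrow and 203, 218 and 207 in fetal liver. The fetal liver arrays were close together and inside the marrow range, in which replicate 2 was the highest (-0.18 ± 0.43, limma adjusted p = 0.869). Probe set 1450403_at had 75.3, 194 and 70.5 in marrow and 143, 52.2 and 137 in fetal liver, with means of 113 and 111 (change 0.00 ± 0.61, 95% interval -1.36 to 1.35). Marrow replicate 2 was the highest array of both probe sets, and without it their changes were 0.13 and 0.46.

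Stat3, a factor of interleukin 6 family receptors that interferons also activate, showed overlapping tissues on each of its 4 probe sets. Probe set 1426587_a_at had signals of 1987, 814 and 1466 in marrow and 1527, 1946 and 1393 in fetal liver (0.27 ± 0.33, limma adjusted p = 0.716). Probe set 1460700_at had 1034, 1569 and 1315 on the marrow arrays and 1017, 2146 and 1300 on those of fetal liver (0.14 ± 0.31, adjusted p = 0.861). On these bright probe sets marrow replicate 2 was the lowest of all arrays on the first and the second highest on the other. The dimmer probe sets 1459961_a_at, at 107 to 249 in marrow and 58.7 to 150 in fetal liver, and 1424272_at, at 40.6 to 71.4 and 41.1 to 56.5, had changes of -0.70 ± 0.56 and -0.17 ± 0.56 (adjusted p = 0.544 and 0.912).

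Socs1, the inhibitor induced by the relay, was at the level of the background controls. Its probe set 1450446_a_at had signals of 23.2, 22.6 and 26.4 in marrow and 42.2, 9.72 and 16.3 in fetal liver. Only marrow replicate 3 and fetal liver replicate 1 exceeded the controls of their arrays. Being too dim for the filter, the probe set was not tested, and no fold is given because neither tissue was above background on most arrays.

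The genes of the pathway around these members were taken from 5 lists written from general knowledge, in which each gene stands by its brightest kept probe set. Of 99 genes, 88 had a named probe set and 65 were tested. Of the 65, 6 were higher in marrow (4.09% of 11625 genes were) and 1 in fetal liver (2.26% of genes were). The median change was -0.34, against 0.01 over all genes, and 46 of 65 were negative. Of the 6, 4 came from the list of targets of the relay, and the receptor chains and feedback inhibitors held 1 each. The list of targets was written with lower levels of interferon-inducible genes in these arrays already known. The pooled count and median are therefore no independent support. Median centring moved every change by the same 0.25. The median of the lists, taken over genes, was then -0.09. That of all probe sets tested was 0.20, from -0.05 before centring. The latter is a median over probe sets, unlike the median of 0.01 over all genes given above.

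Interferon genes themselves were mostly dim. Of 9 interferon genes with a probe set, each having 1, 4 were above background on no array, 3 on a single array, and Ifna1 and Ifna5, the only ones to pass the filter, on 6 and 5 arrays. Ifna1, a type I interferon of a family of closely similar genes, had signals of 108 ± 24.5 in marrow (SD, n = 3) and 92.6 ± 38.0 in fetal liver (-0.29 ± 0.54, limma adjusted p = 0.826), on a probe set shared with other transcripts. Ifna5 had the smallest p of the list (-0.67 ± 0.63, adjusted p = 0.620).

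Among 18 other receptor chains that use these kinases, 1 rose and 1 fell in fetal liver. Il10ra, the ligand-binding chain of the interleukin 10 receptor, had signals of 31.5, 2.88 and 54.0 in marrow and 305, 372 and 510 in fetal liver. Only 1 marrow array was above background, so the size of the change depends on how dim signals are treated. It was 4.12 ± 0.79 (limma adjusted p = 0.0141), 3.30 with signals floored at the Bacillus controls, 3.34 with an offset of 16 and 2.96 with the mean of the gene's probe sets. Without marrow replicate 2 it was 3.14, and without marrow replicate 3 it was 4.79. It was not past the threshold when fetal liver replicate 2 (adjusted p = 0.0529) or fetal liver replicate 3 (0.0702) was left out, or without the intensity trend (0.0567). Il6ra, the ligand-binding chain of the interleukin 6 receptor, had 564, 432 and 786 in marrow and 54.9, 25.5 and 142 in fetal liver, where 2 of 3 arrays were above background (-3.23 ± 0.60, adjusted p = 0.0118, and -3.84 without fetal liver replicate 3). The partner chains of both were not past the threshold. Il10rb, the neighbour of Ifnar2 and Ifnar1, had 249, 216 and 396 in marrow and 145, 137 and 179 in fetal liver, without overlap (-0.85 ± 0.42, adjusted p = 0.303). Il6st, which encodes gp130, differed by -0.67 ± 0.47 (adjusted p = 0.486). The median of the list was -0.66.

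None of the 9 other JAK and STAT proteins and partners passed in limma (2 at an unadjusted p under 0.05, both lower in fetal liver), and their median was -0.34. The smallest p was that of Stat6, the factor of interleukin 4 signalling, at 1772 ± 429 in marrow (SD, n = 3) and 1015 ± 335 in fetal liver (-0.82 ± 0.30, limma adjusted p = 0.156). Irf9, the partner of STAT2, differed by -0.34 ± 0.42 (adjusted p = 0.723) and the kinase gene Jak3 by 0.02 ± 0.85 (adjusted p = 0.991).

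Of 20 feedback inhibitors and phosphatases, 1 fell and the median was -0.03. Ptprc, which encodes CD45, a phosphatase of leukocyte membranes that can dephosphorylate JAKs, had signals of 3556, 2844 and 2696 in marrow and 850.4, 601 and 710.0 in fetal liver (-2.07 ± 0.24, limma adjusted p = 9.12e-04). Averaging the gene's probe sets gave -2.72. Socs2, an inhibitor of growth hormone and cytokine receptors, had 49.8, 85.5 and 122 in marrow and 322, 211 and 416 in fetal liver, without overlap (1.88 ± 0.50, adjusted p = 0.0585). It was past the threshold under quantile normalization, median centring, the filter at the 60th percentile, 1 probe set per gene and the mean of probe sets. Ptpn11, the phosphatase SHP2 (0.64 ± 0.18, adjusted p = 0.0642), was past it under median centring, 1 probe set per gene, the mean of probe sets and the replicate block.

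Of 16 tested targets of the relay, 4 fell in fetal liver and 0 rose (0 also at an unadjusted p under 0.05). Their median was -0.54 and 14 were negative. Irf1, a transcription factor induced by interferon gamma, had signals of 1151, 1118 and 1135 in marrow and 307, 187 and 379.8 in fetal liver (-2.01 ± 0.33, limma adjusted p = 0.00697). The remaining 3 fell to levels near or below background in fetal liver, so their changes depend on how dim signals are treated, and each was smaller with signals floored at the Bacillus controls. Gbp3, a guanylate-binding protein gene, had 471, 203 and 344 in marrow and 25.6, 29.5 and 11.3 in fetal liver, where 1 of 3 arrays was above background (-3.78, adjusted p = 0.00425, and -3.26 when floored). Gbp2, of the same family, had 554, 175 and 219 in marrow and 10.2, 30.5 and 43.3 in fetal liver, where 2 of 3 were (-3.37, adjusted p = 0.0162, and -2.85 when floored). With marrow replicate 1 left out it did not pass (adjusted p = 0.0610). Rsad2, which encodes the antiviral protein viperin, had 481, 930.3 and 682 in marrow and 6.81, 7.60 and 50.2 in fetal liver, where 1 of 3 was (-5.27, adjusted p = 0.00185). Its change was -4.11 when floored, -3.55 averaged over its probe sets and -6.07 without fetal liver replicate 3. Lower levels of interferon-inducible genes in these fetal liver arrays were already known when the list was written, so its count is no independent support.

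**Figure D3:**
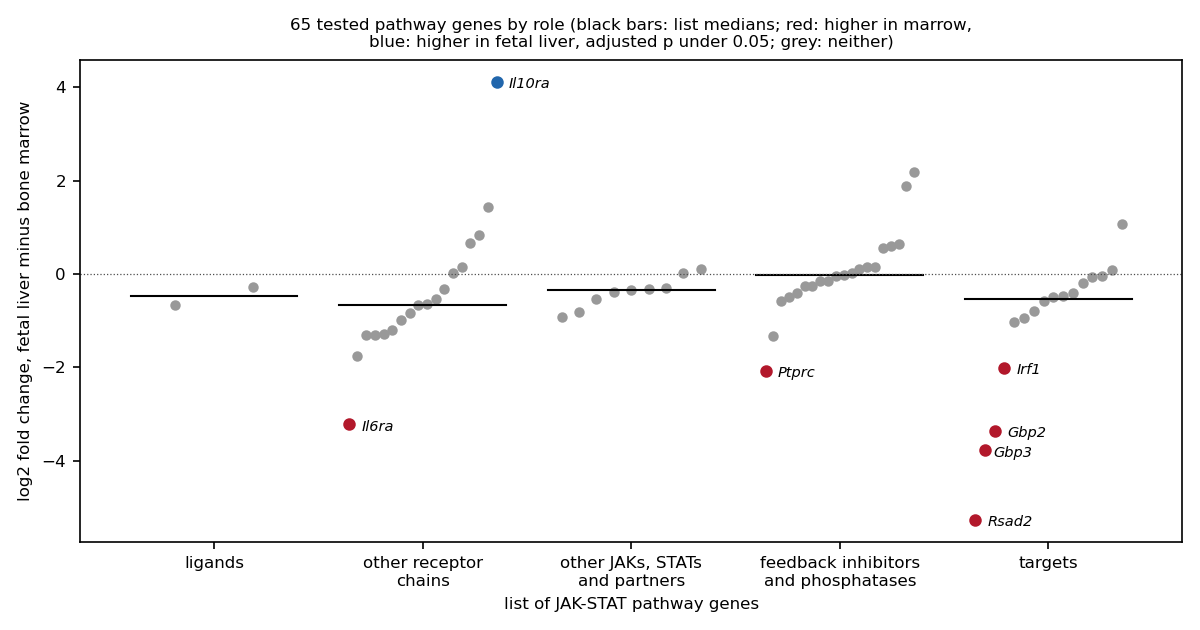
Log2 fold change, fetal liver minus bone marrow, of 65 tested pathway genes, 1 point per gene, in 5 lists by role, with a black bar at each list's median. Coloured and named points passed the adjusted threshold, with Il10ra alone above 0 and Il6ra, Ptprc, Irf1, Gbp2, Gbp3 and Rsad2 below it, while most points lie between -2 and 2.

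Markers of other cells moved with the tissues as well. Of 13 tested granulocyte and monocyte markers, 12 were higher in marrow, and the summed signal of 15 such markers was 46184 to 72247 in marrow and 4839 to 6949 in fetal liver. No marker had a signal of 0 on any array, but Ltf, Fcnb, Chil3, Csf3r and Mmp8 were above background on no fetal liver array, while Mpo, the brightest, had 3558 ± 1284 there (SD, n = 3). Macrophage markers summed to 2016 to 3907 in marrow and 406 to 562 in fetal liver, with 3 of 6 tested higher in marrow, and Adgre1, C1qa, C1qc and Cd163 above background on no fetal liver array. Markers of mast cells, basophils and eosinophils summed to 8551 to 12655 and 2357 to 6259, with 3 of 7 higher in marrow. Most of that sum was Gata2, a factor that MkP also express, and without it, a choice made after seeing the data, the sums were 1714 to 3273 and 144 to 463. Erythroid markers summed to 5697 to 10552 and 13601 to 28384, with 5 of 9 higher in fetal liver. Hepatocyte markers summed to 668, 250.5 and 636 in marrow replicates 1 to 3 and to 882, 3696 and 648 in those of fetal liver. The tissues overlapped, and the highest sum was that of fetal liver replicate 2 alone. Of these markers 0 of 5 were past the threshold in limma and 3 were higher in fetal liver at an unadjusted p under 0.05. Ifnar2, Ifngr1, Il6ra and Ptprc are expressed by myeloid cells, and the part of such cells in their lower signals was not tested. In bulk RNA, fewer cells of a type and less RNA per cell cannot be told apart. Megakaryocyte markers summed to 43552 to 47582 in marrow and 37967 to 47560 in fetal liver, with 1 of 9 past the threshold, higher in fetal liver. This was Tubb1, which averaged 118 in marrow and 2772 in fetal liver. At an unadjusted p under 0.05 in limma, 2 of the 9 were higher in marrow and 1 in fetal liver. Markers of T and NK cells (707 to 1365 and 965 to 1037), B cells (641 to 739 and 322 to 543) and endothelium (2840 to 4651 and 3044 to 4602) had 0 of 2, 0 of 2 and 1 of 5 past the threshold in limma, the last higher in fetal liver (0, 1 and 1 at an unadjusted p under 0.05).

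The genes whose pattern over the 6 arrays was nearest to that of Ifnar2 probe set 1451462_a_at were Anxa4, Pura and Hnmt, by the root mean square difference of log2 signals, each centred on its own mean (0.0523, 0.103 and 0.106). Anxa4, a calcium-dependent membrane-binding annexin, had signals of 1269, 1014 and 1305 in marrow and 522, 522 and 537 in fetal liver. For Ifnar1 probe set 1449026_at the nearest were Card19, Slco2b1 and Sirpa (0.0981, 0.129 and 0.131). Sirpa, the myeloid receptor of CD47, had 773, 382 and 905 in marrow and 517, 415 and 384 in fetal liver. Its marrow replicate 2 was low, as on Ifnar1 probe set 1449026_at. On the other Ifnar1 probe set, 1442222_at, marrow replicate 2 was the highest array. Nearness was measured over 6 arrays among 11625 genes and is a description.

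The settings moved the calls of the receptor chains more than their order. Ifnar2, Ifngr1, Ifnar1 and Jak1 stayed below 0 on their brightest probe sets and Ifngr2 above 0 in each of 18 alternatives.

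**Figure D4:**
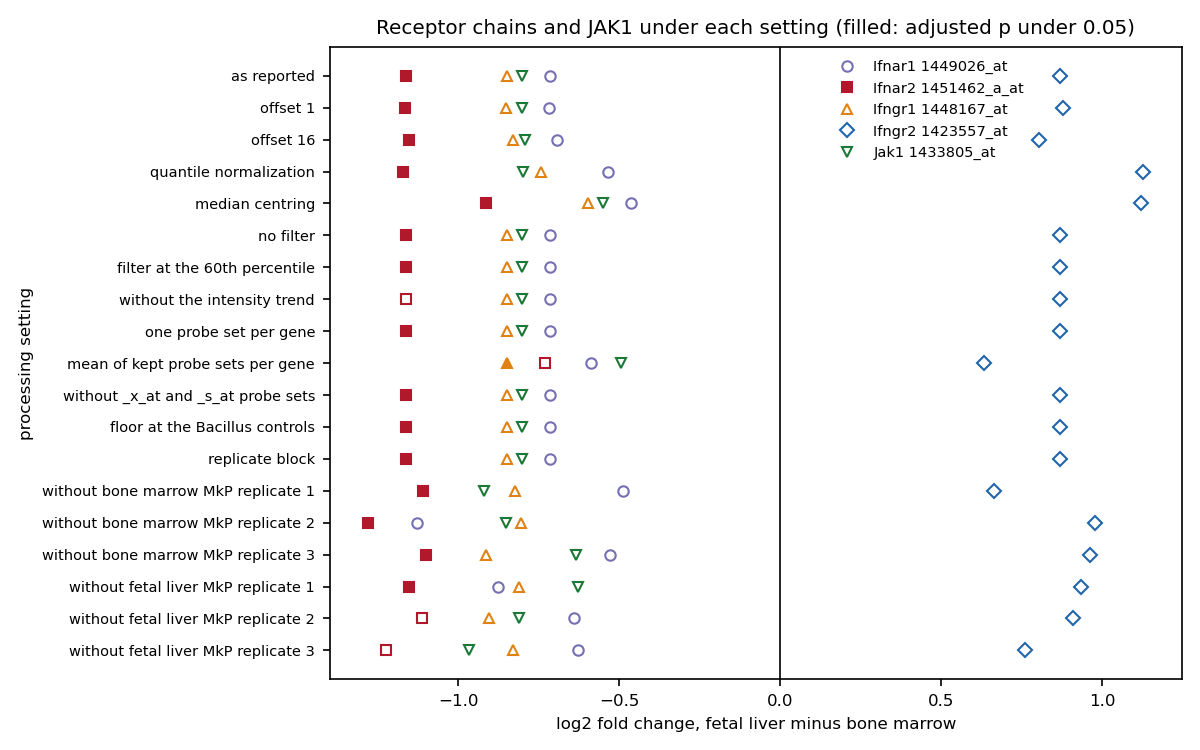
Log2 fold change, fetal liver minus bone marrow, of the brightest probe sets of 4 receptor chains and Jak1 under the reported setting and each alternative, with filled symbols where the adjusted p was under 0.05. Ifnar2 is unfilled in 4 alternatives, and Ifngr2 lies between 0.63 and 1.13 throughout.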

How the data were processed

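The deposited values were linear intensity signals of probe sets, computed by the authors with MAS5 per the submitters' processing notes; its version and scaling target were not given in the sources used here. On every array the mean signal trimmed by 2% at each end was 500, so arrays had been scaled alike. Signals of 45037 probe sets (64 controls left out) became log2(signal + 2.87), the offset being their 10th percentile, and 27022 with a mean above the 40th percentile were kept. A fold change on this scale understates changes of dim genes. Names came from the platform annotation (34945 probe sets with 1 symbol, 932 with several, 9160 not listed). Both tissues, grouped by sample title, were compared in limma 3.58.1 under R 4.3.3 (lmFit, eBayes with an intensity trend), first tested on simulated data, with Benjamini-Hochberg adjustment over all kept probe sets. Alternatives covered offset, scaling, filter, variance model, probe set rule, floor, replicate block and each array left out. Figures used matplotlib 3.10.9. Members, lists and tests were chosen with earlier results of these data known. The rule for named genes took every probe set of the 10 genes, from each pathway list up to 4 genes past the threshold in each direction or, with none, the smallest p, the 3 nearest patterns to Ifnar1 and Ifnar2, the sort markers and the brightest markers. Other genes named without passing (Il10rb, Il6st, Irf9, Jak3, Socs2, Ptpn11) were chosen for their role or after their values were seen. Tubb1 was named as the megakaryocyte marker that passed.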

Additional observations from a re-analysis of the deposited data

How the results depend on the processing

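Of the 21 tested probe sets, the order of the tissues was kept in every alternative by 1449026_at (Ifnar1), 1427691_a_at and 1451462_a_at (Ifnar2), Ifngr1, both of Ifngr2, 1433804_at and 1433805_at (Jak1), 1421066_at (Jak2) and 1459961_a_at (Stat3). The order of the tissues turned for the others, whose changes as reported lay between -0.46 and 0.27. Quantile normalization gave 0.15 for Jak1 1433803_at, 0.038 and 0.020 for Tyk2, 0.072 and 0.28 for Stat2 and 0.055 for Stat3 1424272_at. Median centring gave 0.19, 0.20, 0.016, 0.072, 0.25 and 0.083 for the same probe sets in that order. The mean of probe sets gave -0.12 for Stat3 1426587_a_at. With 1 array left out, changes ran from -0.97 to 0.10 (Ifnar1 1442222_at), -0.85 to 0.013 (Ifnar2 1440169_x_at), -0.35 to 0.18 (Jak1 1433803_at), -0.15 to 0.56 (Jak2 1421065_at), -0.31 to 0.32 and -0.40 to 0.058 (Tyk2), -0.42 to 0.13 and -0.26 to 0.46 (Stat2), and -0.37 to 0.011, -0.088 to 0.55 and -0.16 to 0.38 (Stat3 1424272_at, 1426587_a_at and 1460700_at). The causes were not tested.

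The 1 call in the set (higher in marrow) became 0 without the intensity trend. It ranged from 0 to 1 with an array left out, being 0 without fetal liver replicates 2 and 3. With the mean of probe sets the count stayed 1, but the gene called was Ifngr1 (limma adjusted p = 0.0398) and not Ifnar2 (0.212). The call of 0 higher in fetal liver was 0 in every alternative. Pathway genes higher in fetal liver, 1 as reported, were 2 under quantile normalization, 3 under median centring, 0 without the intensity trend, 3 with 1 probe set per gene, 3 with the mean of probe sets, and 0 to 2 with an array left out. Those higher in marrow, 6 as reported, were 9 with an offset of 16 and with the Bacillus floor, 4 with the filter at the 60th percentile, which left Gbp2, Gbp3 and Rsad2 (and Il10ra) untested, 6 to 8 in the other settings and 5 to 8 with an array left out. Over all probe sets, 482 calls were for fetal liver and 886 for marrow, 64.8% of calls being in marrow against 35.2% under median centring, which gave 1291 in fetal liver. Without the intensity trend the counts were 195 and 526, and with 1 value per gene, where fewer features were tested, 553 (brightest) and 589 (mean) were higher in marrow. With an array left out they were 140 to 455 and 477 to 689; without fetal liver replicates 1, 2 and 3 those in fetal liver were 251, 140 and 140, and without fetal liver replicates 2 and 3 those in marrow were 501 and 477.

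Whether the replicate numbers pair the samples was not settled. Deviations of same-numbered arrays correlated at 0.12, -0.02 and 0.10, and not every array correlated best with its own number. So few arrays cannot exclude pairing. With the replicate number as a block, 1 probe set of the set and 2 and 8 pathway genes passed (fetal liver and marrow), with 717 and 1077 probe sets overall. With 3 arrays a tissue, dim probe sets have wide 95% intervals, for example -1.83 to 0.91 for Ifnar1 1442222_at and -1.67 to 0.95 for Ifnar2 1440169_x_at.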
